A study of Mus musculus with 9 samples.

Results

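Indian hedgehog (Ihh), the hedgehog receptor and transduction genes Ptch1, Hhip, Smo, Gli1, Gli2 and Gli3, and Nr2f2, which encodes COUP-TFII, were examined in whole mouse uterus by RNA sequencing. They were chosen by name as the hedgehog to COUP-TFII route, make up 8 of 35930 genes, and were each measured as the summed FPKM (fragments per kilobase of transcript scaled to the mapped fragments of the library) of their annotated transcripts. The 9 libraries came from C57BL/6 females, 3 per group. Uterine horns received 50 µl of pooled culture medium conditioned by 18 human embryos that arrested (arrested), pooled medium conditioned by 9 developmentally competent human embryos (competent), or embryo culture medium that had held no embryo (control). Females of all 3 groups had been primed with 1 mg progesterone, given once, and estradiol at 10 mg/kg per day over 3 days. The treatment label gives their age as 25 days, while the design text also gives 21 days. These were immature, hormone-primed females, and one pool of medium is described per kind of embryo. Whether replicates are different animals is not stated in the labels, so each p-value reflects variation among these samples that could be technical.

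In mouse uterus, progesterone acting through its receptor raises Ihh in the epithelium. The secreted ligand binds Ptch1 on stromal cells, which releases Smo from inhibition and lets the GLI transcription factors act, and stromal COUP-TFII is needed for the decidual response that follows. Gli1, Ptch1 and Hhip are themselves classical targets of hedgehog signalling, so their RNA is widely used as a readout of it, while Gli3 acts largely as a repressor when ligand is absent.

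Sequences just upstream of the ligand gene and of 2 feedback genes, the receptor Ptch1 and the decoy receptor Hhip, are shown because GLI proteins act through DNA; they run from 250 bases before to 50 bases after the start of the gene in RefSeq (GRCm38.p6), 5′ to 3′ along the gene. Capitals mark GGGTGG or its reverse complement CCACCC, the core of the GLI consensus TGGGTGGTC.
Ihh (chr1:74951623-74951922, minus strand): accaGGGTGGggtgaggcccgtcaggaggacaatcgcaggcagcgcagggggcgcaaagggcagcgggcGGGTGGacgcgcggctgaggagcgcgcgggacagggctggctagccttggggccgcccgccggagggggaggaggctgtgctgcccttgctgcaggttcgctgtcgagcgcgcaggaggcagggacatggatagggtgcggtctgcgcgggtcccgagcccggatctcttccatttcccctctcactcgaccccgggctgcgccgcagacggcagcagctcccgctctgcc
Ptch1 (chr13:63565686-63565985, minus strand): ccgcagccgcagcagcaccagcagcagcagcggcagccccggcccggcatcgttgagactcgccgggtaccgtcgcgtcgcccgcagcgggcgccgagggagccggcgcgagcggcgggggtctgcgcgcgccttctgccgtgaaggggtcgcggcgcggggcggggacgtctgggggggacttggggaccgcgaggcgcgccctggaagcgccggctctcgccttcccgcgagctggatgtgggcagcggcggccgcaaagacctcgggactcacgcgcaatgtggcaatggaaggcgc
Hhip (chr8:80057959-80058258, minus strand): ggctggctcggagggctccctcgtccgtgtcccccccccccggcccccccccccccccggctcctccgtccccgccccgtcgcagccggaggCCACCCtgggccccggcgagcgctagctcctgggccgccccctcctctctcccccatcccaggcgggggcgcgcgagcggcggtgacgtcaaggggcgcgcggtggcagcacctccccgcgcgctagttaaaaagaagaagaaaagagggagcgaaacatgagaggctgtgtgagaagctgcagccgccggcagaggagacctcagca
The core was found on either strand 2 times in the Ihh window, not in the Ptch1 window and 1 time in the Hhip window. It was in the windows of 5 of the 7 genes that had one (Ihh, Smo, Gli2, Gli3 and Hhip), and in 31.5% of 32851 promoters of the same length. A gene was counted if any window under its name held the core, whereas the 31.5% is over single windows, so the units differ. The full consensus, which contains the core, was in no window of the 7 genes and in 0.253% of all promoters. These matches describe letters in a short window, and Gli1 was not among the 7 genes.

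Depth in reads is unknown for FPKM; the deposited coverage amounted to 1303 to 2471 Mb per library, and coverage per FPKM ranged from 1.09 to 1.98. Across genes, pairs of libraries from the same group correlated at 0.853 to 0.902 and pairs from different groups at 0.860 to 0.900 (Pearson's r, a description over genes that are not independent). Epithelial markers (9 of 9 found, none at 0) summed to 2146 to 3216 FPKM in arrested, 2561 to 2989 in competent and 2325 to 3050 in control libraries. Stromal fibroblast markers (8 of 8 found) summed to 1506 to 2884, 1474 to 2156 and 1818 to 2199 FPKM in the same order of groups, with Pdgfrb listed at 0 in arrested 3 and competent 2 and Col3a1 in control 3. Both lists were thus present in every library, as the uterus label implies. Oviductal glycoprotein Ovgp1 was at 40.5 FPKM in arrested 3 and listed at 0 in the other 8 libraries, and adipocyte markers summed to 1302 FPKM in arrested 2 against 1.42 to 163 in the other 8. In whole tissue, fewer cells of a type and less RNA per cell cannot be told apart.

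Smo and Nr2f2 were the most abundant, at means over the 9 libraries of 32.5 and 30.8 FPKM, with 8.78% and 9.18% of all genes higher. Gli1 averaged 4.07, Ptch1 2.18 and Ihh 1.47 FPKM. Gli3, Hhip and Gli2 averaged 0.996, 0.372 and 0.176 FPKM, under the mean of 1 FPKM required for testing, so 5 of the 8 were tested. In this order of levels per length, the library values of neighbouring genes overlapped, except that all Nr2f2 values were above all Gli1 values. The order is that of annotated FPKM and depends on the measure. On the exon coverage described below, Gli1 averaged 6.99, Ptch1 6.60, Ihh 1.78, Gli2 1.74, Gli3 0.961 and Hhip 0.168. Smo and Nr2f2 stayed highest there, at 34.3 and 25.1.

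**Figure D1:**
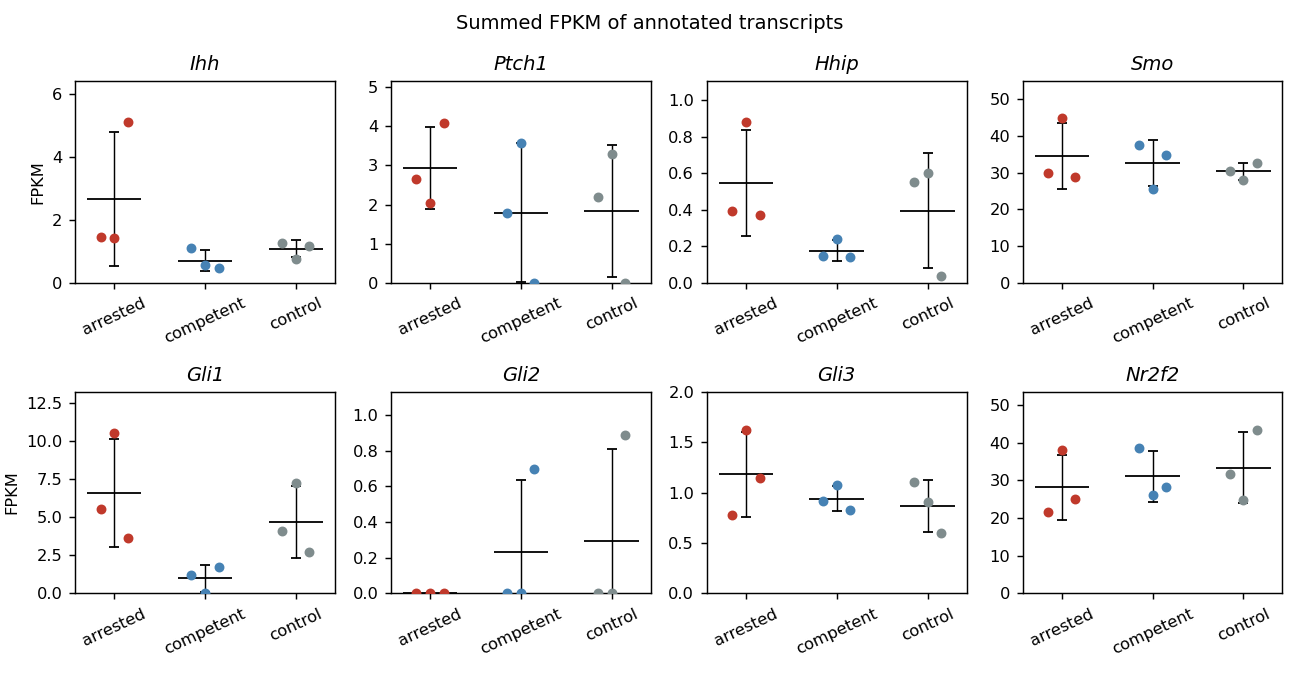
Summed FPKM of annotated transcripts for each gene (vertical axes, linear, from 0) in arrested, competent and control libraries; points are libraries 1 to 3 from left to right, thick lines group means and bars SD (n = 3). Gli1 is lower in all 3 competent libraries than in any other library, Ihh is highest in arrested 3, and Gli2 is listed at 0 in 7 of the 9 libraries.

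Gli1, the transcriptional activator and target of the pathway, was lowest after competent embryo medium. It stood at 5.54, 10.5 and 3.62 FPKM in arrested libraries 1 to 3, at 1.22, 0 and 1.73 FPKM in competent libraries, and at 4.07, 7.25 and 2.68 FPKM in control libraries. All 3 competent values lay below all 6 others, and arrested and control libraries overlapped. Of the 13333 tested genes, 7.73% were higher in arrested than in competent libraries without overlap, and 8.12% were lower in competent than in control libraries without overlap. All of the annotated signal came from the 13-exon transcript ENSMUST00000026474, within the gene at mm9 chromosome 10, 126766945 to 126778645 on the minus strand. The authors' interval for it was 3.00 to 4.23 FPKM in arrested 3, the lowest arrested library, and 1.32 to 2.13 FPKM in competent 3, the highest competent library, an interval that covers estimation error within a library only.

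By limma on log2(FPKM + 1) over all 13333 tested genes, Gli1 did not pass the threshold in any contrast. The log2 difference of arrested minus competent was 1.95 ± 0.51 (SE; unadjusted p = 0.00480, limma adjusted p = 0.277), that of competent minus control was −1.56 ± 0.51 (unadjusted p = 0.0150, adjusted p = 0.882), and that of arrested minus control was 0.39 ± 0.51 (adjusted p = 0.937). These sizes depend on the pseudocount. A larger one shrinks differences of genes at such levels. A smaller one gives more weight to the value of 0 listed for Gli1 in competent 2, so neither size is taken as the true one. Arrested minus competent was 3.28 with a pseudocount of 0.1 and 0.92 with 5, and competent minus control was −2.82 and −0.68 (limma adjusted p from 0.309 to 0.949 in these 4 fits). Over the 3 groups, the F test of limma gave an adjusted p of 0.558 for Gli1 on annotated FPKM and 0.0790 on the exon coverage described below.

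Part of the Gli1 signal lay outside the annotated transcripts, as the deposited assemblies also hold transcripts built in each library. These took a median of 55.0% of Gli1 FPKM, with the 0 of competent 2 arising where the whole signal was given to an assembled transcript. With assembled transcripts added, Gli1 was at 10.3, 23.3 and 8.15 FPKM in arrested, 3.39, 1.50 and 1.73 in competent, and 7.29, 7.25 and 8.25 in control libraries. Every competent library was below all of the arrested and control libraries. The share of all genes separated in this way was not computed with assembled transcripts added. The log2 difference of arrested minus competent for Gli1 was 2.13 ± 0.37 (limma adjusted p = 0.0972).

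**Figure D2:**
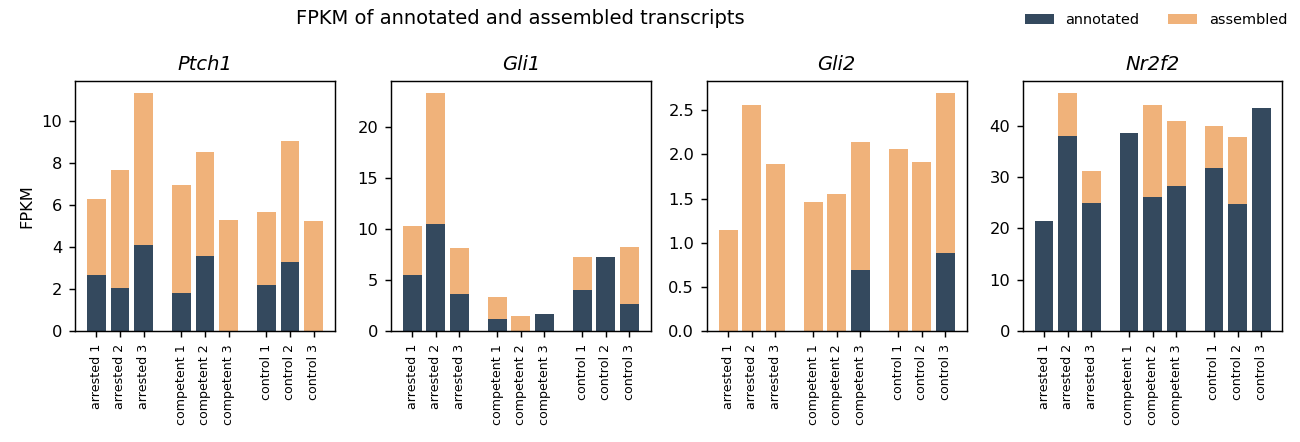
FPKM of annotated (dark) and assembled (light) transcripts of Ptch1, Gli1, Gli2 and Nr2f2 stacked per library, arrested, competent and control from left to right, linear axes from 0. The dark part of Ptch1 vanishes in competent 3 and control 3 and that of Gli1 in competent 2, while the light part remains.

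To set aside the division of signal between overlapping transcripts, a further measure was made by summing the deposited coverage of all transcripts over the annotated exons of a gene, scaled to FPKM units. It took in any transcript overlapping those exons, on either strand and of any gene, so it can hold signal of other genes. On this exon coverage, Gli1 was 9.94, 12.2 and 7.04 in arrested, 3.47, 1.66 and 2.36 in competent, and 8.27, 9.84 and 8.05 in control libraries. The mean was 9.74 ± 2.60 in arrested, 2.50 ± 0.92 in competent and 8.72 ± 0.98 in control libraries (SD, n = 3 each), a 3.90-fold difference of arrested over competent and 0.286-fold of competent over control. Arrested minus competent was 1.62 ± 0.23 on the log2 scale, which passed the threshold (limma adjusted p = 0.0350), as did 77 of 15017 genes (0.513%; 15.6% had an unadjusted p under 0.05). On exon coverage, 9.74% of genes were higher in arrested than in competent libraries without overlap, and 11% were lower in competent than in control libraries without overlap. Of the 6 genes tested on this measure, Gli1 was the 1 called, in this contrast and in neither of the others. Competent minus control was −1.50 ± 0.23 (unadjusted p = 0.000179, limma adjusted p = 0.394), a contrast in which 0 genes (0%) were called by limma and 6.21% had an unadjusted p under 0.05. Arrested minus control was 0.12 ± 0.23 (limma adjusted p = 0.967), where 0.0533% of genes were called and 6.45% had an unadjusted p under 0.05.

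The Gli1 call on exon coverage was close to the threshold. It was lost when any single library other than arrested 3 was left out, with adjusted p from 0.0502 without arrested 2 to 0.163 without competent 3, and also without the filter on low values (limma adjusted p = 0.0689) and with the replicate number as a block (limma adjusted p = 0.0875). Without arrested 3 the difference was 1.82 ± 0.22 (limma adjusted p = 0.0255). Over the 9 fits the difference stayed between 1.44 and 1.82. Summed smooth muscle markers (7 of 7 found, none at 0) were 879 to 2145 FPKM in arrested, 1386 to 2770 in competent and 1614 to 1689 in control libraries, and the stromal sums given above also overlapped between groups. Single markers moved within these lists. All 7 smooth muscle markers had lower means on the log2 scale in arrested than in competent libraries, with a median difference of −0.76 and none called. The stromal marker Dcn was at 792 to 1281 FPKM in arrested, 523 to 687 in competent and 838 to 943 in control libraries (limma adjusted p = 0.287 in arrested minus competent). Its competent libraries were below all others. On annotated FPKM, 7.73% of tested genes were higher in arrested than in competent libraries without overlap, and 8.12% were lower in competent than in control libraries. Col1a1 ran the other way, at 35.6 to 198 FPKM in arrested, 178 to 331 in competent and 111 to 152 in control libraries (limma adjusted p = 0.410). The part of these markers in the Gli1 difference was not tested.

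**Figure D3:**
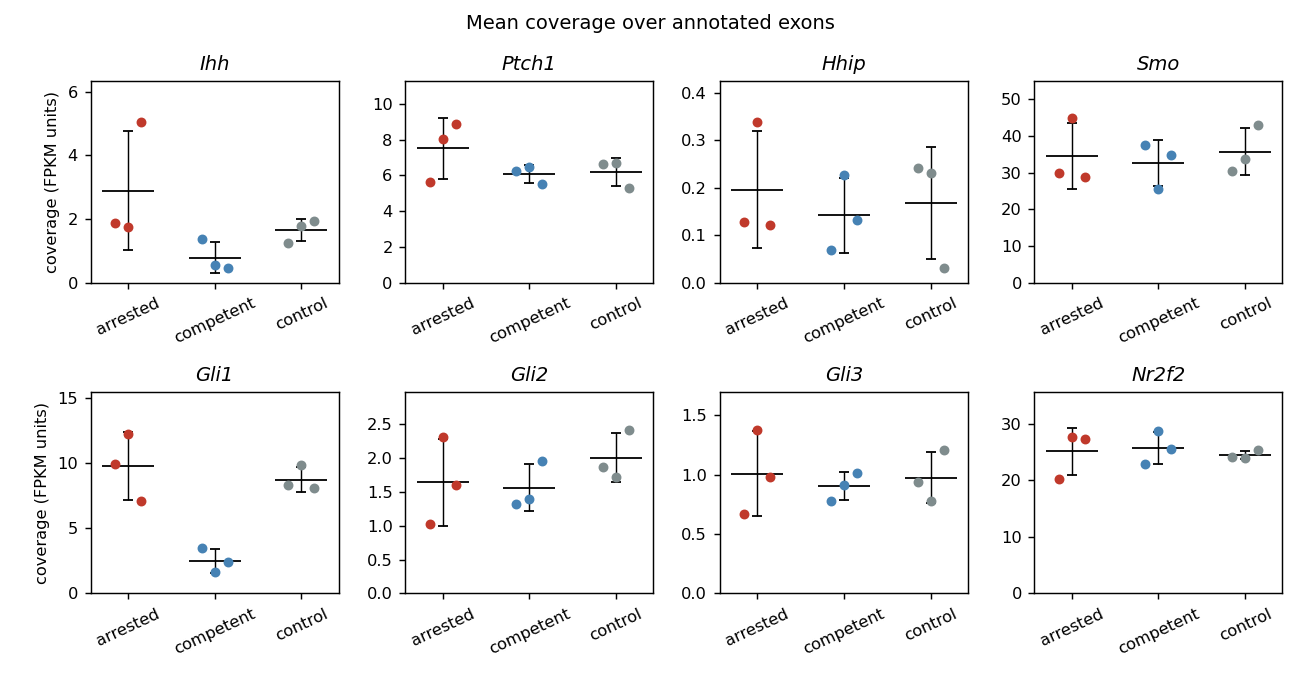
Mean coverage over annotated exons in FPKM units (vertical axes, linear, from 0) for the same genes and libraries, drawn as for summed FPKM. Gli1 at 1.66 to 3.47 in competent libraries stands apart from 7.04 to 12.2 in the other 6, whereas Smo, Gli3 and Nr2f2 overlap in all 3 groups.

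Ihh, the ligand, was measured at 1.45, 1.41 and 5.09 FPKM in arrested, 1.09, 0.55 and 0.46 in competent, and 1.27, 0.76 and 1.18 FPKM in control libraries. Every arrested value was above every competent and every control value, but by little except in arrested 3, and competent and control libraries overlapped. Higher values in arrested than in competent libraries without overlap were found for 7.73% of tested genes, and higher values than in control libraries for 3.49%. The gene lies on mm9 chromosome 1, 74991891 to 74998246 on the minus strand, and its 2 annotated transcripts, of 3 exons each, were 2466 and 2443 bases long, so their separate values were not compared. Arrested minus competent was 0.98 ± 0.41 on the log2 scale (unadjusted p = 0.0446, limma adjusted p = 0.445), arrested minus control 0.68 ± 0.41 (limma adjusted p = 0.904) and competent minus control −0.29 ± 0.41 (limma adjusted p = 0.979).

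The size of the Ihh difference rested on arrested 3. Without it, arrested minus competent was 0.53 ± 0.27 and arrested minus control 0.24 ± 0.27 (limma adjusted p = 0.473 and 0.913). The same library held the Ovgp1 signal, and the ovary and oviduct markers (5 of 5 found) summed there to 46.4 FPKM with Cyp19a1 at 0, against 1.18 to 3.28 FPKM in the other arrested libraries, 1.38 to 3.80 in competent and 1.57 to 2.22 in control libraries; the part of oviduct RNA in the Ihh value was not tested. On exon coverage, Ihh was 1.89, 1.75 and 5.05 in arrested, 1.36, 0.54 and 0.45 in competent and 1.26, 1.78 and 1.94 in control libraries. There, arrested and control overlapped, and arrested minus competent was 1.06 ± 0.34 (limma adjusted p = 0.210).

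Of the other ligands, Dhh ranged from 0.181 to 0.575 FPKM in arrested, 0.0952 to 0.490 in competent and 0.237 to 0.495 in control libraries, and Shh was listed at 0 in all 9. Exon coverage of Shh was at most 0.00662, so that Ihh had the highest mean level per length of the 3 ligands in these libraries. Of genes that modify or release the ligands, Scube1 was at 2.05 to 11.2 FPKM in arrested, 3.14 to 7.05 in competent and 5.54 to 8.65 in control libraries, and the palmitoyltransferase Hhat at 1.72 to 1.89 in arrested, 0 to 1.77 in competent and 0.402 to 2.20 in control libraries; neither passed the threshold (limma adjusted p = 0.994 and 0.698 in arrested minus competent).

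Ptch1, the hedgehog receptor that inhibits Smo, was at 2.66, 2.04 and 4.10 FPKM in arrested, 1.80, 3.57 and 0 in competent, and 2.19, 3.31 and 0 in control libraries. The groups overlapped, and the 2 values of 0 came from libraries in which all signal of the gene was given to assembled transcripts. The values above 0 were not of a single transcript. They came from the 23-exon ENSMUST00000021921 in arrested 2 and control 1, and otherwise from the 4-exon ENSMUST00000169233. On exon coverage Ptch1 was 5.62, 8.03 and 8.90 in arrested, 6.27, 6.45 and 5.50 in competent and 6.62, 6.70 and 5.31 in control libraries, none of them near 0. Arrested minus competent was 0.72 ± 0.69 on summed FPKM (limma adjusted p = 0.764) and 0.25 ± 0.16 on exon coverage (adjusted p = 0.517). On summed FPKM it was 0.11 without competent 3, the library listed at 0, and 1.20 without competent 2. The difference between the Gli1 and Ptch1 responses was not tested.

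Hhip, the membrane decoy that binds hedgehog ligand, was at 0.390, 0.879 and 0.368 FPKM in arrested, 0.145, 0.241 and 0.141 in competent, and 0.549, 0.600 and 0.0333 in control libraries. Arrested and competent libraries did not overlap on this scale. The same held, with arrested libraries higher, for 3.76% of all 35930 genes, filtered or not. Only 21848 of these genes had any annotated signal, and genes without signal cannot separate. Among the 13333 tested genes the share was 7.73%. On exon coverage the arrested and competent libraries overlapped, with Hhip at 0.121 to 0.338 in arrested, 0.0683 to 0.226 in competent and 0.0312 to 0.242 in control libraries. Hhip was under the filter and was not tested in the main fit. Hhip is on mm9 chromosome 8, 82490014 to 82581905, minus strand.

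Smo, the transducer, was even across groups, at 29.9, 44.9 and 28.9 FPKM in arrested, 37.4, 25.5 and 34.8 in competent and 30.5, 27.9 and 32.6 in control libraries. Arrested minus competent was 0.07 ± 0.21, arrested minus control 0.16 ± 0.21 and competent minus control 0.09 ± 0.21 (limma adjusted p = 0.944, 0.939 and 1). The single annotated Smo transcript lies on mm9 chromosome 6, 29685694 to 29711365 on the plus strand.

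The other GLI factors were low. Gli3 was 0.782, 1.62 and 1.15 FPKM in arrested, 0.915, 1.07 and 0.827 in competent and 1.10, 0.912 and 0.595 in control libraries, with overlap of every pair of groups. Annotated Gli2 was listed at 0 in 7 libraries, with 0.695 FPKM in competent 3 and 0.886 FPKM in control 3, because assembled transcripts took a median of 100% of its signal. On exon coverage Gli2 was 1.03 to 2.31 in arrested, 1.33 to 1.96 in competent and 1.73 to 2.42 in control libraries, with overlap of every pair of groups; arrested minus competent was 0.0265 ± 0.21 on the log2 scale (limma adjusted p = 0.974).

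**Figure D4:**
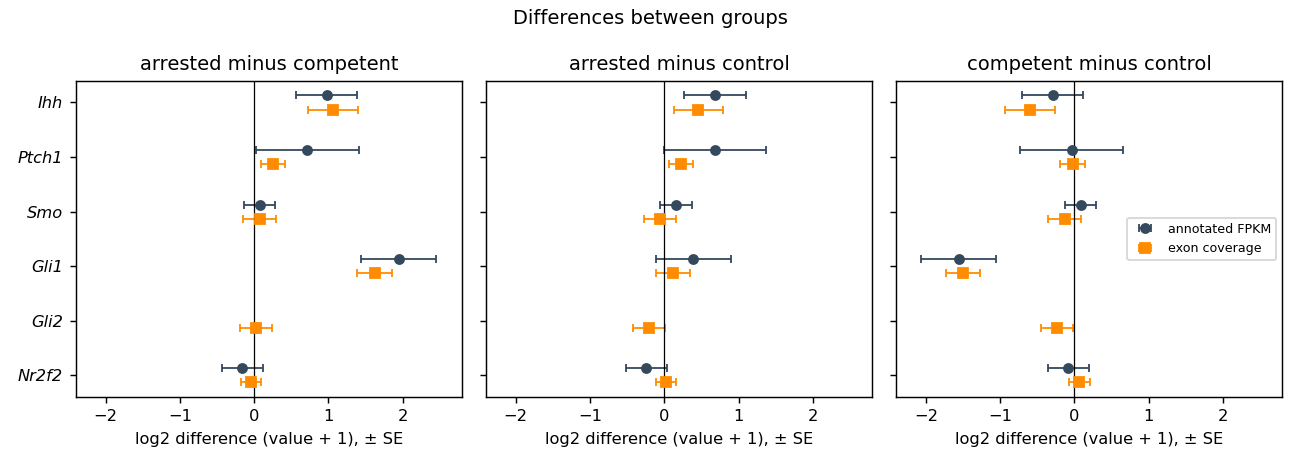
Log2 differences (value + 1) ± SE of the 5 tested genes, and of Gli2 on exon coverage only, for arrested minus competent, arrested minus control and competent minus control; circles are annotated FPKM and squares exon coverage. Gli1 lies at 1.95 and 1.62 in arrested minus competent and at −1.56 and −1.50 in competent minus control, whereas Smo and Nr2f2 lie near 0 in all 3 panels.

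Nr2f2, the stromal transcription factor COUP-TFII at the end of the route, was at 21.5, 38.0 and 24.9 FPKM in arrested, 38.7, 26.2 and 28.2 in competent, and 31.7, 24.8 and 43.4 in control libraries. The groups overlapped, with differences of −0.16 ± 0.28, −0.24 ± 0.28 and −0.08 ± 0.28 for arrested minus competent, arrested minus control and competent minus control (limma adjusted p = 0.886, 0.924 and 1). On exon coverage the spread shrank to 20.3 to 27.7 in arrested, 22.9 to 28.7 in competent and 24.0 to 25.3 in control libraries, still overlapping. Both annotated transcripts were expressed, and ENSMUST00000089565 took 45.0% to 65.5% of the annotated signal over the 9 libraries.

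The 5 tested genes together gave 0 calls in each contrast of the main test by limma, where 0.135% of the 13333 tested genes were called in arrested minus competent, 0.045% in arrested minus control and 0.0375% in competent minus control. At an unadjusted p under 0.05 these were 2 (Ihh and Gli1), 0 and 1 (Gli1) of 5, against 10.9%, 5.26% and 5.17% of all genes. The median difference of the 5 genes in arrested minus competent was 0.72, which is the value of Ptch1, against −0.0071 over all tested genes. On exon coverage the median of the 6 genes tested was 0.16, against −0.0048 over all genes tested. Called over all genes were 18, 6 and 5.

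Other genes of the hedgehog route and of the genes around Nr2f2 were taken from lists, of which 56 genes were tested. None was called in any contrast, and 28 were higher and 28 lower in arrested than in competent libraries. At an unadjusted p under 0.05 by limma were 10 of the 56 in arrested minus competent, 6 in arrested minus control and 3 in competent minus control. The shares of all tested genes were 10.9%, 5.26% and 5.17% in the same order. Their median difference in arrested minus competent was 0.0032, near that of all genes. The genes named below are the 2 of smallest unadjusted p in each list together with Bmp2, Wnt4, Hand2 and Nr2f1, and none passed the threshold.

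Among co-receptors, Boc, which binds hedgehog ligand, was at 2.63, 3.76 and 1.43 FPKM in arrested libraries, was listed at 0 in all 3 competent libraries and was at 1.10, 2.51 and 1.97 FPKM in control libraries (limma adjusted p = 0.169 in arrested minus competent). On exon coverage Boc averaged 3.01 ± 1.30 in arrested, 3.28 ± 0.30 in competent and 3.12 ± 0.27 in control libraries (SD, n = 3 each). The exons of Boc were thus covered in the libraries that list its annotated transcript at 0. Gpc3, taken from the same list as Boc, was at 11.1 to 25.0 FPKM in arrested, 7.12 to 9.57 in competent and 8.18 to 13.6 in control libraries (limma adjusted p = 0.412). Evc2, a ciliary protein that promotes Smo signalling, was at 4.57, 8.45 and 7.99 FPKM in arrested, 1.07, 1.78 and 5.10 in competent and 4.70, 4.73 and 5.31 in control libraries (limma adjusted p = 0.378); on exon coverage it averaged 5.23 ± 1.55 in arrested, 3.35 ± 0.20 in competent and 3.69 ± 0.28 in control libraries (SD, n = 3 each). Btrc, a ubiquitin ligase subunit, was the other cilium and transduction gene named (2.66 to 4.75 FPKM in arrested, 1.46 to 2.90 in competent, 2.48 to 2.61 in control, limma adjusted p = 0.483).

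Of hedgehog target genes known from other tissues, Mycn was at 20.8 to 35.2 FPKM in arrested, 43.9 to 55.1 in competent and 37.5 to 42.2 in control libraries (limma adjusted p = 0.260 in arrested minus competent), with the competent libraries above all others. For tested genes in general, 8.75% were lower in arrested than in competent libraries without overlap, 6.72% higher in competent than in control libraries and 5.36% lower in arrested than in control libraries. Igfbp3, a binding protein for insulin-like growth factors, was at 39.7, 63.5 and 138 FPKM in arrested, 26.9, 20.6 and 26.0 in competent and 30.8, 25.6 and 31.9 in control libraries (limma adjusted p = 0.282). All arrested values were above all others. Of tested genes, 7.73% were higher in arrested than in competent libraries without overlap, and 3.49% higher than in control libraries. The highest Igfbp3 value was in arrested 3, the library with Ovgp1 signal, and the part of oviduct RNA in that value was not tested.

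On the progesterone side, Gata2, which acts with the progesterone receptor upstream of Ihh in mouse, was at 33.0, 41.6 and 26.4 FPKM in arrested, 56.8, 53.3 and 50.1 in competent and 43.1, 51.8 and 45.0 in control libraries (limma adjusted p = 0.268 in arrested minus competent). Every arrested value was below every competent and control value, where 8.75% and 5.36% of tested genes were lower in arrested libraries without overlap. The annotated Pgr transcript was listed at 0 in 6 libraries, but on exon coverage Pgr averaged 23.4 ± 9.95 in arrested, 22.0 ± 4.66 in competent and 23.7 ± 0.96 in control libraries. On that measure the groups overlapped.

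Among stromal genes placed downstream of COUP-TFII, Hoxa11, a homeobox factor of the stroma, was at 30.0, 50.9 and 31.4 FPKM in arrested, 19.2, 20.9 and 24.1 in competent and 33.5, 39.2 and 39.4 in control libraries (limma adjusted p = 0.327 in arrested minus competent, 0.871 in competent minus control). The competent libraries were below all others, in a gene named for its small p. Of tested genes, 7.73% were higher in arrested than in competent libraries without overlap, and 8.12% were lower in competent than in control libraries. Fgf1, a fibroblast growth factor, was at 0.717 to 4.97 FPKM in arrested, 2.76 to 14.5 in competent and 0 to 1.78 in control libraries (limma adjusted p = 0.670 in arrested minus competent and 0.871 in competent minus control), and its 2 control values of 0 were listed estimates. Bmp2 and Wnt4, which drive decidual change, and Hand2, which restrains epithelial growth, showed differences of 0.24 ± 0.31, −0.50 ± 0.20 and 0.04 ± 0.35 in arrested minus competent (limma adjusted p = 0.829, 0.438 and 0.988). Nr2f1, the closest relative of Nr2f2, was at 0.124 to 3.98 FPKM in arrested, 0.798 to 3.51 in competent and 0.306 to 3.86 in control libraries, and Nr2f6 at 30.9 to 35.0 in arrested, 32.0 to 41.5 in competent and 29.7 to 38.5 FPKM in control libraries. The related orphan receptor Nr2c2 ranged over 0 to 4.87 FPKM in arrested, 1.98 to 5.61 in competent and 0 to 3.76 in control libraries (limma adjusted p = 0.770 in arrested minus competent).

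**Figure D5:**
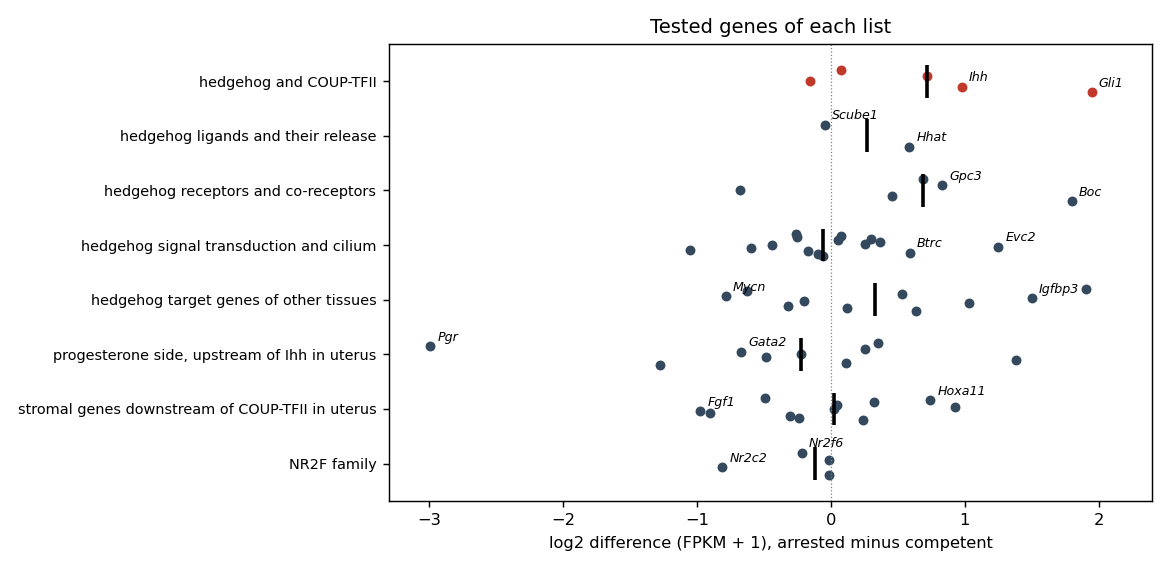
Log2 differences (FPKM + 1) of arrested minus competent for tested genes of the 8 genes (top row) and of each list (rows below); points are genes, bars medians, and the named genes are labelled. Gli1 lies furthest right at 1.95, Boc is at 1.80 and Pgr furthest left at −2.99, the Boc and Pgr values resting on annotated transcripts listed at 0.

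Likeness of profile over the 9 libraries is a description over libraries that share their depth and composition. For Ihh it was taken among 8059 genes averaging 5 FPKM or more, leaving out symbols that are predicted-gene identifiers. Ihh stood nearest to Rassf4 (r = 0.969), Ldhb (r = 0.968) and Slc16a11 (r = 0.961). All 3 peaked in arrested 3, Rassf4 at 22.7 FPKM against 3.44 to 5.88 in the other 8 libraries. Without the 2 libraries farthest from the median of Ihh, which include arrested 3, r was 0.960, 0.807 and 0.651. Nr2f2 stood nearest to Pogz (r = 0.969), Ggnbp2 (0.938) and Klf5 (0.912), among 8058 genes, and without competent 1 and control 3 r was 0.936, 0.879 and 0.910. In those 2 libraries, where annotated Nr2f2 was highest, assembled transcripts took 0% of its FPKM. The share was also 0% in arrested 1, where annotated Nr2f2 was lowest at 21.5 FPKM. Klf5 was listed at 0 in 4 of the 9 libraries. The likeness is of annotated values and was not computed on exon coverage.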

How the data were processed

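Uterine RNA of 9 libraries (arrested, competent and control, 3 each) was analysed from the deposited transcript tables. Per the submitters' processing notes, the build was mm9 and the tools were Bowtie 0.12.2 and Cufflinks; sources used here do not give the Cufflinks version. The deposited FPKM values and their intervals, and the deposited coverage signal (mean read depth per transcript), are the authors' own. FPKM were used without rescaling, whereas coverage was scaled per library as follows.

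The gene value was the sum of FPKM over 91479 annotated transcripts, giving 35930 genes. Exon coverage was the coverage of all transcripts, annotated and assembled, summed over the union of a gene's annotated exons and divided by the library's median coverage per FPKM (1.09 to 1.98). Transcripts were counted by position, whatever their strand or gene. Genes averaging 1 FPKM or more (13333) were tested with limma 3.58.1 in R 4.3.3 on log2(FPKM + 1), a single fit with group means and a mean trend, and Benjamini-Hochberg adjustment over all tested genes at a threshold of 0.05. The script was tested on simulated data. Failed estimates listed at 0 were kept. Python 3.11.15 with pandas 2.3.3, numpy 2.4.6 and matplotlib 3.10.9 was used.

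The genes and lists were chosen with earlier results of these data known. Named from the lists are genes past the threshold or, where there is none, the 2 of smallest unadjusted p, with Shh, Dhh, Pgr, Bmp2, Wnt4, Hand2 and Nr2f1 always; 1 further gene named always is not reported here. Cell type markers were summed by list and are outside this rule. Alternatives covered the pseudocount, the filter, scaling, the transcripts summed, exon coverage, the trend, a replicate block, the 2 groups compared alone and leaving out each library.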

Additional observations from a re-analysis of the deposited data

How the results depend on the processing

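Of the tested members, no difference passed the threshold under any alternative in any contrast between 2 groups, except that of Gli1 in arrested minus competent on exon coverage, which made 1 member called, against 0 on annotated FPKM; it was also 1 on exon coverage with median-ratio size factors and without arrested 3 (between 0 and 1 with single libraries left out). The F test over the 3 groups called 1 member on exon coverage without arrested 3 and 0 in all other fits run. Exon coverage fits with a library left out, a replicate block, no filter or other scaling were chosen after seeing the data. Over all fits, the Gli1 adjusted p in this contrast ranged from 0.0255 to 0.626. With the replicate block, Gli1 on exon coverage was not called (limma adjusted p = 0.0875). Deviations of libraries with the same number correlated at −0.052 to 0.096, and those with different numbers at −0.094 to 0.082. Of the 9 libraries, 6 correlated best with their own number, which does not settle whether the numbers pair the samples. The labels name no paired animals, and the main fit used no pairing.

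Genes called in arrested minus competent were 18, against 11 with the transcript of highest mean only, 77 on exon coverage, 10 without the mean trend, 4 with the replicate block, 33 with the 2 groups alone, and 12 to 43 with 1 library left out. In arrested minus control they were 6, against 3 with the transcript of highest mean only and 7 to 24 with 1 library left out. In competent minus control they were 5, against 2 with a pseudocount of 5, 8 without a filter, 0 on exon coverage, 1 with the replicate block, 12 with the 2 groups alone, and 4 to 16 with 1 library left out. The F test called 12, against 6 with the transcript of highest mean only, 5 with the replicate block and 14 to 36 with 1 library left out. The cause was not tested.

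Small differences changed sign. Smo in arrested minus control was −0.13 with assembled transcripts and −0.060 on exon coverage, and in competent minus control −0.21 and −0.13. Nr2f2 in arrested minus control was 0.024 on exon coverage, and in competent minus control 0.029 with assembled transcripts and 0.066 on exon coverage. Ptch1 in competent minus control was 0.062 with assembled transcripts and 0.52 with the transcript of highest mean only. With 1 library left out, arrested minus competent ran from −0.12 to 0.18 for Smo and −0.39 to 0.0087 for Nr2f2, arrested minus control from −0.040 to 0.27 for Smo and −0.046 to 0.70 for Gli1, and competent minus control from −0.67 to 0.58 for Ptch1, −0.021 to 0.25 for Smo and −0.27 to 0.12 for Nr2f2. Few reads lie behind values near 1 FPKM, and depth in reads is unknown.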

Other observations

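Marker sums of the other cell types in these uteri overlapped between arrested and competent libraries in each of 4 lists. Endothelial markers summed to 26.2 to 64.9 FPKM in arrested, 29.7 to 43.2 in competent and 43.6 to 45.6 in control libraries. Every competent sum was thus below every control sum, by little for the highest. All 5 endothelial markers were lower in competent than in control libraries, with a median log2 difference of −0.38 and 0 called by limma. Leukocyte markers summed to 188 to 325 FPKM in arrested, 185 to 221 in competent and 198 to 340 in control libraries. Mesothelial markers summed to 41.3 to 114 FPKM in arrested, 43.7 to 158 in competent and 34.9 to 73.0 in control libraries. Red blood cell markers were at 2091 to 4842 FPKM in arrested, 747 to 3966 in competent and 937 to 1500 in control libraries, so that every arrested library was above every control library. The part of blood or endothelial content in the differences of the hedgehog genes was not tested.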
